A study of Bubalus bubalis with 8 samples.

Results

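The genes described here were HSPB1, HSPB6, HSPB8 and CRYAB, which encode small heat shock proteins, and BAG3, which encodes a co-chaperone that binds several of them. All probes whose gene name was one of these 5 were taken, 12 probes of the 43653 on the array and 5 of its 24839 gene names. RNA came from buffalo mammary epithelial cells (MECs), a primary culture from the gland of 1 adult buffalo, used at passage 10. Unstressed cells kept at 37 °C served as control (CTR). The other cells were held at 42 °C for 1 h and harvested after recovery of 30 min or of 2, 4, 8, 12, 16 or 24 h. Each of the 8 conditions was hybridised to 1 array of bovine oligonucleotides in a single colour, so that no value has a replicate, no p-value is given, and the number of arrays limits the precision.

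Small heat shock proteins are chaperones that need no ATP. They bind unfolding proteins through a shared alpha-crystallin domain, keep them from clumping and hand them to the HSP70 machine for refolding. BAG3 ties HSPB8 and other small heat shock proteins to HSP70 and steers clients that cannot be refolded towards selective autophagy. Heat shock factor 1 drives transcription of HSPB1, CRYAB, HSPB8 and BAG3 in many cell types, whereas HSPB6 is best known from smooth and cardiac muscle. In the mammary gland CRYAB is known from myoepithelial cells.

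The probes are 60 bases long and were designed on the bovine genome (HGSC Btau_3.1). BAG3 and HSPB8 had 3 probes each, and CRYAB, HSPB1 and HSPB6 had 2 each. The following 4 lie in coding sequence and are shown because they read the mature messages that the results turn on, 5′ to 3′ as the array's files give them, with no part in capitals. The CRYAB probe spans 1550 bases of the genome from end to end, more than its own length (chr15:20479069-20480618, minus strand). The HSPB8 probe lies at chr17:59096900-59096959 (minus strand), and the BAG3 probes lie at chr26:40302228-40302287 (A_73_P258541) and chr26:40302689-40302748 (A_73_P257756), both on the plus strand.
CRYAB A_73_P039441: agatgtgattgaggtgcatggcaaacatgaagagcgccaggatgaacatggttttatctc
HSPB8 A_73_P324666: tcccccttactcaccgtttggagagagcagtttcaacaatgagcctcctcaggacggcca
BAG3 A_73_P258541: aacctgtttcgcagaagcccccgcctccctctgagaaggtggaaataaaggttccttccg
BAG3 A_73_P257756: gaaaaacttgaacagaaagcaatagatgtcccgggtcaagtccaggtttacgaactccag
How buffalo transcripts differ from these bovine probes was not tested.

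Levels are given as the log2 of the scanner's processed intensity above the 75th percentile of the array. A probe was detected where the scanner software called it well above background. For 30 min the log2 values that the authors deposited were used, and a probe counted as detected from a level of -0.09 upwards. On the scanner's own array at 30 min, the spots of HSPB1 A_73_P030911 and BAG3 A_73_104415 were marked as outliers, and those of CRYAB A_73_101765 and BAG3 A_73_P257756 were not detected, so that their 30 min values rest on the deposited table alone. Conversely, HSPB8 A_73_P324666 and HSPB6 A_73_114151 were detected on that scanner array, but their levels from the deposited table fell below the limit. Where CTR or a time point was not detected, the change is a bound, written as "at least", against the higher of the probe's own level and the lowest detected level on that array. The error of a change, from repeated spots of bright probes, lay between 0.29 at 8 h and 0.53 at 16 h on the log2 scale, and covers the spread within arrays only. It rests on 13 to 23 such probes per array. For 30 min the spread of CTR was used in place of its own, which had only 2 such probes.

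The array of CTR lay on a slide with those of 8, 12 and 24 h, and the arrays of 30 min and of 2, 4 and 16 h lay on a second, so that slide and time cannot be told apart for the latter 4. Over 7548 bright probes other than the members, Pearson's r with CTR was 0.96 at 8 h and 12 h and 0.97 at 24 h, against 0.87 at 30 min and 2 h, 0.90 at 4 h and 0.88 at 16 h. The arrays of the second slide also differed from CTR in markers of other cell types. Leukocyte markers had a summed level of 6.81 at 30 min and 6.27 at 2 h (log2), against 3.39 to 4.19 on the other arrays, with 5 and 6 of 7 genes detected against 3 to 5 elsewhere. A probe for CD14 of monocytes (A_73_116002) and one for the pan-leukocyte phosphatase PTPRC (A_73_P072536) were detected at 30 min and 2 h and on no other array, although other probes of both genes were detected more widely, and ITGAM was detected on none. Myoepithelial and smooth muscle markers had all 8 genes detected at 4 h and 16 h against 5 of 8 in CTR, with MYH11 and CNN1 detected on these arrays alone, while their summed level was 6.81 to 8.17 on the second slide and 8.08 to 9.20 on the first. Of 9 epithelial markers, 7 to 9 were detected on every array. Fibroblast markers had 6 of 7 genes detected at 16 h, with a summed level of 7.37 against 1.73 to 4.03 elsewhere. The epithelial keratin KRT8 (A_73_108833) lay at 6.99 in CTR and between 6.38 and 6.74 on the other arrays of its slide, but between 3.28 and 4.69 on the second slide. Not all epithelial genes shared this difference. The level of the cadherin CDH1 (A_73_P067221) was 3.41 in CTR and 3.00, 3.52, 3.77 and 3.76 on the second slide, and that of EPCAM (A_73_108385) was 2.52 in CTR and 2.40, 2.36 and 2.58 at 2, 4 and 16 h, with a change of -1.02 at 30 min. Fewer cells of a type and less RNA per cell cannot be told apart here. Results for 8, 12 and 24 h, on the slide of CTR, rest on none of the arrays that stand apart.

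**Figure D1:**
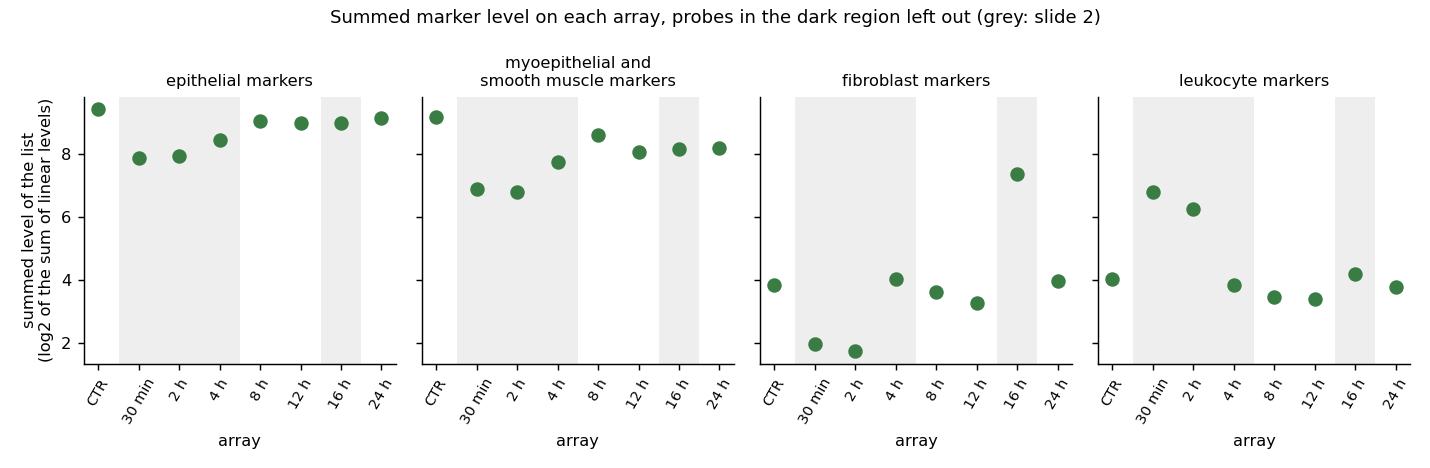
Summed level of 4 marker lists (vertical axis, log2 of the sum of linear levels above the 75th percentile) on each of the 8 arrays (horizontal axis). Grey marks the second slide, and probes in the dark region of CTR are left out. Leukocyte markers stand at 6.81 at 30 min and 6.27 at 2 h, and fibroblast markers at 7.37 at 16 h.

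CRYAB, which encodes alpha-B-crystallin, was not detected in CTR and was highest at 8 h and 12 h. The level of A_73_101765 was -0.65 in CTR and then, in order of time, 0.54, 1.62, 1.88, 5.66, 5.59, 2.23 and 4.00. The levels at 8 h and 12 h differed by 0.07, less than their error of 0.31. It was at least 79.1-fold, 75.4-fold and 25.0-fold above CTR at 8, 12 and 24 h. The coding probe printed above, A_73_P039441, followed the same course. Its level was -1.58 in CTR and -0.99, 0.22, 0.89, 4.85, 4.90, 1.27 and 2.80 over the time points, with CTR and 30 min not detected. Its bounds for the same 3 time points were at least 60.2-fold, 62.4-fold and 14.5-fold. Both probes fell back between 12 h and 24 h, with levels at 12 h that exceeded those at 24 h by 2.10 for A_73_P039441 and by 1.59 for A_73_101765, beyond 2 errors. Across the 8 arrays their levels correlated with a Pearson's r of 0.99.

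On the second slide CRYAB lay above CTR but below its levels at 8, 12 and 24 h. A_73_101765 was at least 2.27-fold above CTR at 30 min, where its scanner spot was not detected, and at least 4.82-fold, 5.77-fold and 7.35-fold above it at 2, 4 and 16 h. Against the 24 h array in place of CTR these time points were lower, with changes of -2.37, -2.11 and -1.77 at 2, 4 and 16 h. The 16 h level thus lay below those at 12 h and 24 h, its neighbours in time, both of which are on the other slide. The changes at 2 h and 4 h were also negative against the 16 h array of their own slide, at -0.61 and -0.35, of which the latter was within the error of 0.57. Myoepithelial and smooth muscle markers differed between the same arrays, as given above, and their part in the CRYAB values was not tested.

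**Figure D2:**
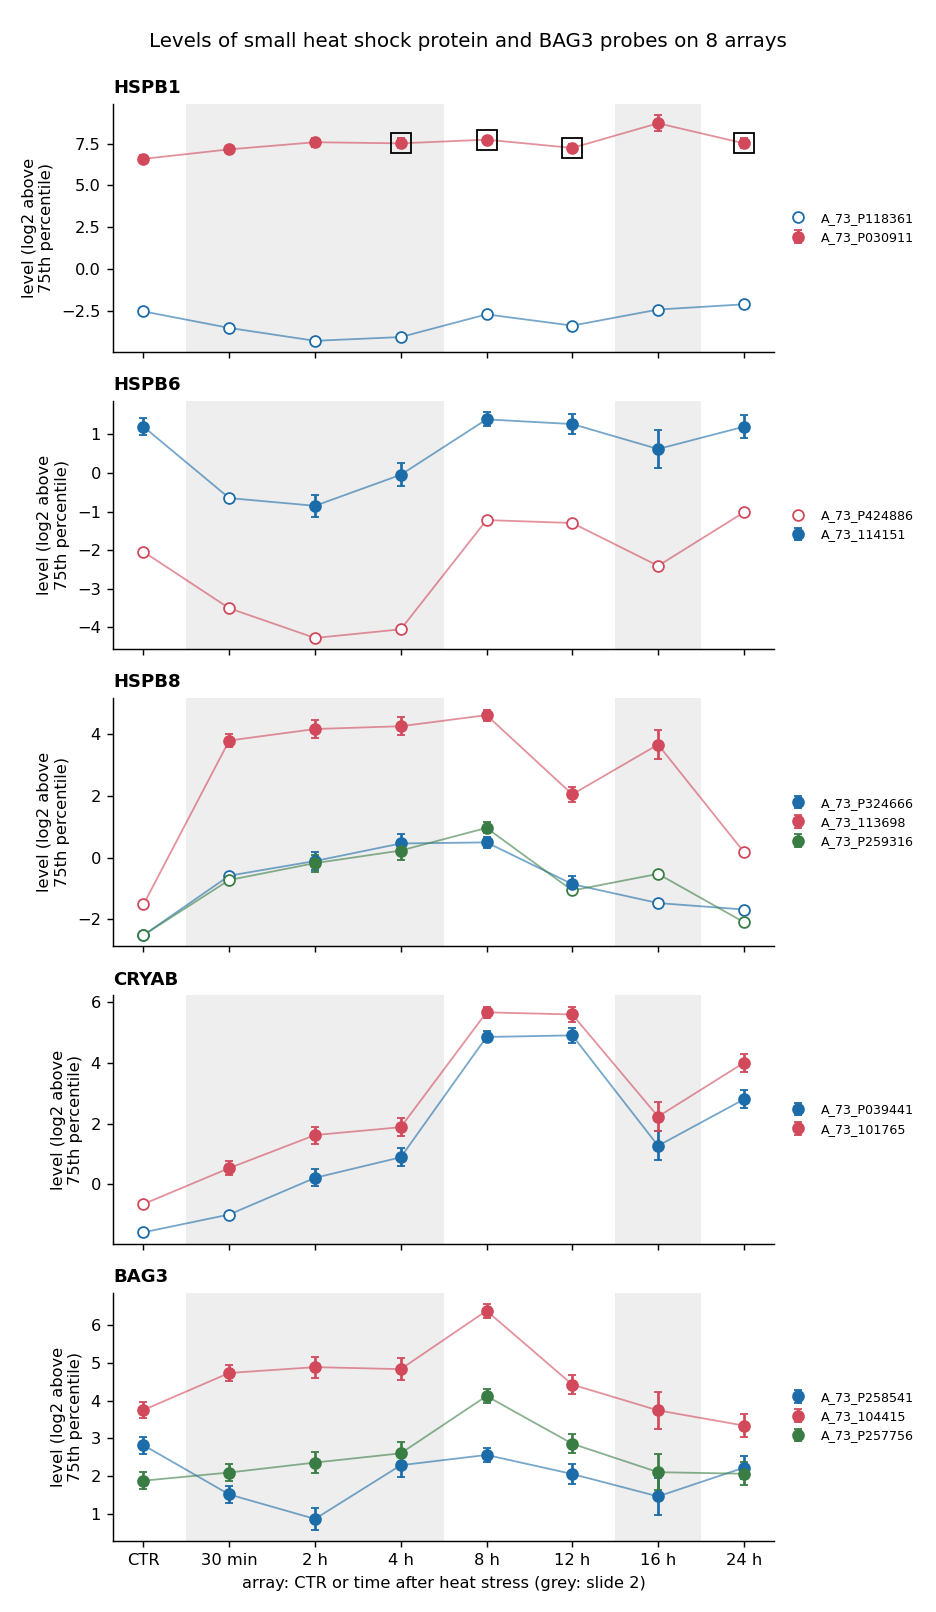
Level of every member probe (vertical axis, log2 above the 75th percentile) on each array (horizontal axis, with the second slide in grey). Filled points were detected, open points were not, black squares mark saturated spots, and bars show the SD between spots of bright probes on that array, with CTR's SD at 30 min. CRYAB is highest at 8 h and 12 h, HSPB8 is at or above 3.67 from 30 min to 8 h and at 16 h by A_73_113698, and the BAG3 probes A_73_104415 and A_73_P257756 are highest at 8 h.

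HSPB8, the small heat shock protein that works in a complex with BAG3, was not detected by any of its 3 probes in CTR or at 24 h, and was detected at the time points between. The brightest record came from A_73_113698, whose level was -1.52 in CTR and then, in order of time, 3.80, 4.17, 4.26, 4.63, 2.05, 3.67 and 0.19. Its level was high at 30 min, as on every array of the second slide (3.67 to 4.26), where slide and time cannot be told apart. It was at least 29.1-fold above CTR at 30 min, and at least 37.7-fold, 40.2-fold and 51.6-fold above it at 2, 4 and 8 h. The bounds at 12 and 16 h were at least 8.67-fold and 26.6-fold. From 8 h to 12 h, on 1 slide, the level went from 4.63 to 2.05, and no step between neighbouring levels among the arrays at 30 min and 2, 4, 8 and 16 h exceeded 2 errors. The 16 h level lay above those at 12 h and 24 h, its neighbours in time, both of which are on the other slide. Its lead over 12 h was 1.62, beyond 2 errors.

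The other HSPB8 probes were dimmer and gave lower bounds. A_73_P324666, printed above, was detected at 2, 4, 8 and 12 h, with levels of -0.11, 0.46, 0.49 and -0.86, and was at least 2.87-fold and 2.94-fold above CTR at 4 and 8 h. At 30 min the scanner called it detected, but its level of -0.59 lay below the limit used there. A_73_P259316 was detected at 2, 4 and 8 h, with levels of -0.18, 0.23 and 0.96, and was at least 4.08-fold above CTR at 8 h. All 3 probes read highest at 8 h, but the lead over 4 h, on the other slide, exceeded 2 errors for A_73_P259316 alone (0.73), and was 0.36 and 0.03 for the others with an error of 0.35. Pearson's r between pairs of these probes over the 8 arrays lay between 0.87 and 0.94.

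HSPB1, known as HSP27, was detected in unstressed cells and lay higher at the time points, with 30 min known from the deposited table alone. A_73_P030911 had a level of 6.59 in CTR and 7.16, 7.58, 7.52, 7.74, 7.24, 8.72 and 7.52 over the time points. Differences between neighbouring levels did not exceed 2 errors. The spot was saturated at 4, 8, 12 and 24 h, so that it was there at least 1.90-fold, 2.21-fold, 1.57-fold and 1.91-fold above CTR. At 2 h, with a signal of 62915 against 20495 in CTR, it was 1.99-fold above CTR. That spot was not marked as saturated, but its signal exceeded the 62265 of the saturated 24 h spot, so its fold may also be a lower bound. The deposited value at 30 min was 1.48-fold above CTR, whereas the outlier spot of the scanner array read 201 there. At 16 h it was 4.37-fold above CTR, but the raw signal there, 51272, was below that of the saturated arrays. The 75th percentile of the 16 h array was 122 against 213 in CTR, and without scaling the change at 16 h was 1.32 (log2), in place of 2.13. No order among the time points can be read from a saturated spot. The second HSPB1 probe, A_73_P118361, was designed on an expressed sequence tag with no position in the array's annotation, and was not detected on any array. It alone of the 12 lay in a rectangular region of the array that was dark on the CTR array, and the 45 bright probes within 10 spots of it lay there at a median of -0.35 (log2) against the other arrays.

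**Figure D3:**
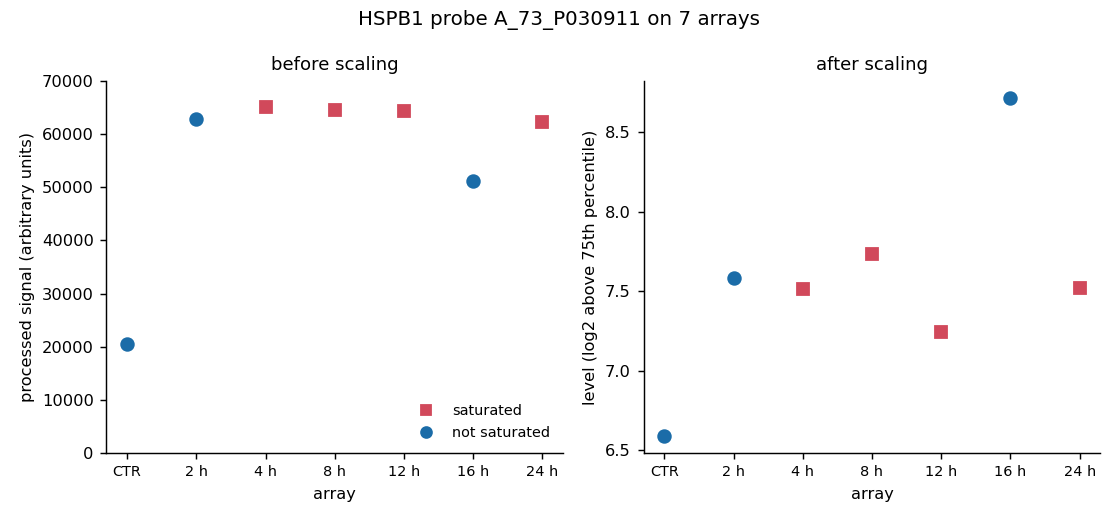
HSPB1 probe A_73_P030911 on 7 arrays, as processed signal in arbitrary units before scaling (left) and as level after scaling (right, log2 above the 75th percentile). Red squares were saturated. The signal is 20495 in CTR and between 51272 and 65159 on the other arrays, and 16 h stands highest only after scaling.

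HSPB6, known as HSP20 and abundant in smooth muscle, was the member with no probe above CTR beyond the error. A_73_114151 had a level of 1.19 in CTR and then, in order of time, -0.65, -0.85, -0.05, 1.38, 1.26, 0.62 and 1.19. At 30 min the probe lay below the limit used there, although the scanner called it detected. On the slide of CTR its changes at 8, 12 and 24 h were 0.19, 0.07 and -0.00, each within the error, although without scaling between arrays they were 0.70, 1.07 and 0.67. On the other slide it was below CTR at every time point, at least 2.44-fold at 30 min and 4.13-fold, 2.37-fold and 1.49-fold at 2, 4 and 16 h. The changes of -2.05 at 2 h and -1.24 at 4 h became -1.34 and -0.15 with each array scaled to its median. The 43 bright probes within 10 spots of A_73_114151 lay at a median of 0.29 (log2) in CTR against the other arrays. On the second slide that median was -0.21 at 30 min and -0.28, 0.02 and -0.47 at 2, 4 and 16 h. The fall of 0.58 at 16 h is thus no larger than this local difference, whose part was not tested. TAGLN, an actin-binding protein of smooth muscle and myoepithelium, was among the genes below CTR on the same arrays. Its level by A_73_108617 was 7.43 in CTR and between 6.47 and 7.06 on the other arrays of its slide, and on the second slide 4.73 at 30 min and 4.47, 5.36 and 6.22 at 2, 4 and 16 h. Other genes of the same marker list went the other way at 4 h and 16 h, where MYH11 (A_73_103577) was at least 7.78-fold and 22.3-fold above CTR and CNN1 (A_73_116127) at least 8.09-fold and 12.8-fold. Of the list's probes with a value, 0 of 8 were 3-fold higher and 6 lower at 30 min and at 2 h, 5 of 16 higher and 4 lower at 4 h, and 6 of 14 higher and 2 lower at 16 h. Of all probes with a value 9.95, 8.41, 4.72 and 8.31% were higher at these times in order, and 5.1, 9.06, 6.15 and 8.62% lower. The part of other cells in the HSPB6 values was not tested. The second HSPB6 probe, A_73_P424886, was not detected on any array.

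BAG3 was detected by all 3 of its probes on all 8 arrays, for A_73_P257756 at 30 min by the deposited value alone, and 2 of them were highest at 8 h. A_73_104415 had a level of 3.75 in CTR and 4.73, 4.89, 4.84, 6.38, 4.43, 3.74 and 3.34 over the time points. The level at 8 h, 6.18-fold above CTR, stood 1.49 above the next array, with an error of 0.33. It was 2.20-fold, 2.12-fold and 1.59-fold above CTR at 2, 4 and 12 h, and its changes of -0.01 at 16 h and -0.41 at 24 h were close to or within the errors of 0.53 and 0.37. A_73_P257756 had a level of 1.88 in CTR and then, in order of time, 2.10, 2.36, 2.61, 4.12, 2.86, 2.11 and 2.07. This coding probe was 4.72-fold above CTR at 8 h, and the level at 8 h exceeded that at 12 h by 1.26, with an error of 0.31. By 24 h its change, 0.18, was within the error. Both probes thus peaked on an array that shares the slide of CTR.

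The third BAG3 probe went another way. A_73_P258541, also coding and nearest of the 3 to the start of the message, had a level of 2.82 in CTR and 1.52, 0.87, 2.29, 2.56, 2.06, 1.47 and 2.23 over the time points. It was highest in CTR, where the 39 bright probes within 10 spots of it lay at a median of 0.28 (log2) against the other arrays. That median was -0.03, -0.20, 0.03, 0.11, -0.14, -0.35 and 0.08 over the time points, and its part here was not tested. At 8 h the change of this probe was -0.26, within the error, where the other probes exceeded 3-fold. At 2 h it was 3.87-fold below CTR, a change of -1.95 that became -1.25 with each array scaled to its median. At 4 h its direction depended on the scaling, with -0.53 here, 0.56 by the median and 0.21 without scaling, as it did at 8 h without scaling (0.25). Over the 8 arrays it correlated with A_73_104415 and A_73_P257756 with a Pearson's r of 0.03 and 0.28, whereas these 2 correlated with each other with an r of 0.86. All 3 carry the same transcript in the array's annotation. Which of them follows the BAG3 message of buffalo was not tested.

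Counted at 3-fold, more member probes were above CTR than below it at each time point except 2 h, where the counts were equal. At 8 h 6 of the 12 were higher (CRYAB and BAG3 by 2 probes each, HSPB8 by 2), beside 2.01% of all probes with a value, and none was lower, beside 0.21%. Dim probes have a value only where they became detected, so the probes with a value, 10 at 8 h, are not a neutral sample of the 12 at any time point. At 12 h 3 were higher (both of CRYAB and 1 of HSPB8) beside 1.34%, and none was lower beside 0.604%. At 24 h both CRYAB probes were higher beside 1.52%, and none was lower beside 0.861%. On the second slide the backgrounds were wider. At 30 min 1 of 7 probes with a value was higher, from HSPB8, beside 9.95%, and none was lower beside 5.1%. At 2 h 2 were higher beside 8.41%, from CRYAB and HSPB8, and 2 were lower beside 9.06%, HSPB6 A_73_114151 and BAG3 A_73_P258541. At 4 h 3 were higher beside 4.72% and none was lower beside 6.15%. At 16 h 4 were higher beside 8.31%, both of CRYAB and 1 each of HSPB8 and HSPB1, and none was lower beside 8.62%. The HSPB1 probe did not pass 3-fold there without scaling between arrays. Without scaling it did pass at 2, 4, 8, 12 and 24 h, with changes between 1.60 and 1.67 (log2). Of these spots all but that at 2 h were saturated.

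**Figure D4:**
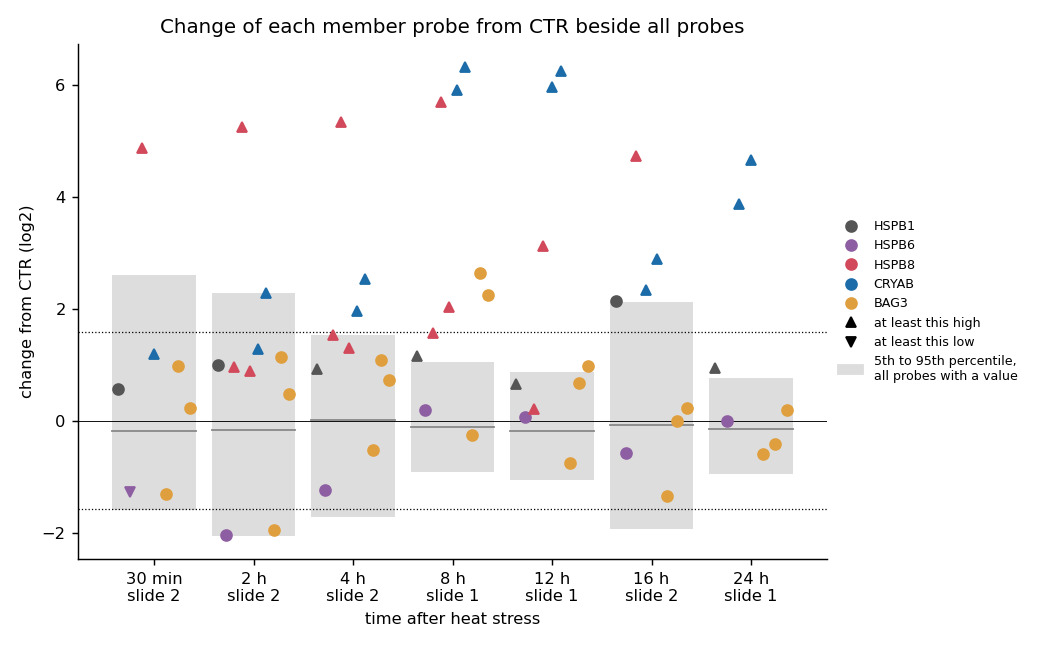
Change from CTR of each member probe with a value (vertical axis, log2) at 7 time points (horizontal axis, with the slide). Upward triangles are lower bounds of a rise, including saturated spots, the downward triangle bounds a fall, grey boxes span the 5th to 95th percentile of all probes with a value, grey lines are their median, and dotted lines mark 3-fold. At 8 h 6 member probes lie above the dotted line, with both CRYAB probes and the HSPB8 probe A_73_113698 at 5.69 to 6.31. The other HSPB8 probe above the line, A_73_P259316, is at 2.03.

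The other small heat shock proteins gave few values. Of 7 genes listed, 6 were on the array with 10 probes, and all but HSPB11 and ODF1 were undetected on every array, including HSPB2, the neighbour of CRYAB in the buffalo annotation. ODF1, a sperm tail protein of the family, was 5.94-fold lower than CTR as a bound at 2 h and changed by -0.75 at 8 h. HSPB11 was detected at 2, 4 and 16 h only, with bounds of 1.40-fold to 1.97-fold. Only 1 or 2 probes of the list had a value at each time point, and none was 3-fold higher, beside 1.34 to 9.95% of all probes. ODF1 was 3-fold lower at 2, 4 and 16 h, beside 9.06, 6.15 and 8.62% of all probes.

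Among the other BAG proteins, co-chaperones of HSP70, 5 of 6 listed genes were on the array with 10 probes. At each time point 6 or 7 of these had a value. None was 3-fold higher, beside 1.34 to 9.95% of all probes with a value, and among so few probes this is close to that share. BAG2, which restrains the ligase STUB1, changed by 1.33 and 0.99 at 8 h by its 2 probes, and was 3.34-fold and at least 3.69-fold lower than CTR at 16 h. These were 2 of 6 probes with a value at 16 h, beside 8.62% of all probes that were 3-fold lower. BAG1 (A_73_P033111) changed by 1.01 at 4 h and 0.51 at 8 h, but its other probe, A_73_P401016, by -0.13 and -0.38. At 8 h the median change of the 6 probes with a value was 0.26, beside -0.11 for all probes.

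The partners of BAG3 and genes of selective autophagy comprised 18 genes on the array with 48 probes. At 8 h 7 of 30 probes with a value were 3-fold higher, from HSPA1A, HSPA6 and HSPA8, none was lower, and the median change was 0.21 beside -0.11 for all probes. Over the 7 time points in order, 6, 4, 1, 7, 3, 3 and 0 of its 32, 33, 32, 30, 35, 31 and 28 probes with a value were higher, and 0, 0, 1, 0, 2, 2 and 4 were lower. Of all probes with a value 9.95, 8.41, 4.72, 2.01, 1.34, 8.31 and 1.52% were higher at these times. The shares that were lower were 5.1, 9.06, 6.15, 0.21, 0.604, 8.62 and 0.861%. HSPA1A, the stress-induced HSP70, changed by 4.55 at 8 h and 2.94 at 12 h by A_73_P359866, and by -1.43 at 24 h. HSPA8, the constitutive HSC70 to which BAG3 also binds, differed from it in the later time points, where A_73_P341276 changed by 0.83, -1.65 and -3.34 at 8, 12 and 24 h. Both HSPA8 probes that passed 3-fold at 8 h lie in the dark region of CTR. GABARAPL1, which acts at the autophagosome, was at least 4.04-fold above CTR by all 3 probes at 16 h, and changed by 0.60 and -0.29 at 8 h by the 2 with a value. STUB1, the ubiquitin ligase that BAG3 complexes recruit, stayed within 3-fold at every time point, with changes of -0.54 and -0.66 at 8 h.

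Most probes with a value for genes upstream of the members were within 3-fold of CTR. HSF1, the factor that drives heat shock transcription, changed by -0.01, -0.05 and 0.95 at 8, 12 and 16 h by A_73_P044471, whereas A_73_P266746 was at least 1.68-fold lower at 8 h, changed by -0.13 at 12 h and was at least 1.57-fold lower at 16 h. Of the 10 probes for heat shock factors and their binding protein, 5 or 6 had a value at each time point, with none for HSF4. None of these was 3-fold higher or lower, beside 1.34 to 9.95% of all probes higher and 0.21 to 9.06% lower. Among so few probes the absence of a call is close to these shares. Of 5 kinases upstream of HSPB1, MAPKAPK2 alone had a probe 3-fold higher, and that probe lies in the dark region of CTR, while another of its probes was at least 3.33-fold lower at 16 h. The MAPKAPK2 probe A_73_P121961 outside it changed by 0.43 at 8 h, and was 2.26-fold lower at 30 min. MAPKAPK3 (A_73_101031) changed by 0.12 at 8 h and 0.84 at 16 h.

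Genes with a pattern most like each member were taken by Pearson's r over the 8 arrays, which share CTR, slides and scaling. The HSPB8, CRYAB and HSPB6 probes were not detected on all arrays, and their undetected levels entered r. These were CTR and 24 h for HSPB8, CTR for CRYAB and 30 min for HSPB6. The level of BAG3 (A_73_104415) ran most like that of DNAJC21 (r = 0.95), HSP90AA1 (0.95), HSPA1A (0.94), AHSA1 (0.92) and HSP90AB1 (0.91). DNAJC21 is a J-domain co-chaperone, HSP90AA1 and HSP90AB1 are the inducible and constitutive cytosolic HSP90, and AHSA1 activates the HSP90 ATPase. DNAJC21 changed by 2.60 and HSP90AA1 by 1.91 at 8 h, beside 2.63 for BAG3. HSPB8 (A_73_113698) ran most like HIST2H2BE (0.98), HSP90AB1 (0.95), KEAP1 (0.95), HM13 (0.93) and AKAP9 (0.93). CRYAB (A_73_101765) ran most like UCHL5 (0.93), CELF1 (0.91), FOSL2 (0.90), ARIH1 (0.89) and GGNBP2 (0.87), whose changes at 8 h were between 1.12 and 1.80, far below that of CRYAB. For HSPB6 the nearest were TEAD3 (0.99), TAGLN (0.99), IGFBP7 (0.99), PCSK1N (0.99) and FXYD6 (0.98), which were between 1.68 and 2.39 (log2) below CTR at 2 h. For HSPB1 no such genes are named, since its probe was saturated on 4 of the 8 arrays.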

How the data were processed

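RNA was labelled in 1 colour and hybridised to bovine 60-mer arrays, 1 per condition, so no test between conditions was possible. The authors scanned the slides and extracted the images with Agilent Feature Extraction 9.5.3.1. They deposited its processed signal, an intensity, and a table of log2 values whose centring is not given in the sources used here. Intensities were taken to log2 and scaled to the 75th percentile of each array over spots other than controls, leaving out outlier spots and averaging spots of 1 probe. The scanner intensities at 30 min departed from the deposited log2 values, so the deposited values were used there, moved onto the same scale by the median offset of each probe over the other 7 arrays. Members and lists were chosen with earlier results of these data known. Genes named for likeness are the 5 of highest Pearson's r with the brightest probe of each member (HSPB1 is left out as saturated), among probes detected on all arrays with an SD of at least 0.5. Detection on all arrays was not required of the member probes themselves. A probe was counted as changed from 3-fold. Alternatives were other scalings, background correction, filters, cutoffs and baselines. Python 3.11.15, numpy 2.4.6, pandas 2.3.3, R 4.3.3 and limma 3.58.1 were used. Depth does not apply to arrays, and signal over background limits dim probes.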

Additional observations from a re-analysis of the deposited data

How the results depend on the processing

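No paired analysis was possible because each condition had 1 array. The main limits were the 2 slides, dim CTR probes that gave only bounds, and saturation of HSPB1. Counts of member probes above and below 3-fold kept within 1.5 times under the 75th percentile over bright probes, quantile normalization, the deposited log2 values and with the dark region left out. Each array scaled to its median gave 3, 7 and 8 higher at the first 3 time points, and 0 lower at 2 h. That scaling shifted the median of bright probes by 0.96, 0.70 and 1.09 (log2) at these times. Normexp background correction gave 4 higher and 0 lower at 2 h. Measured values without bounds gave 3, 5 and 5 higher and 1, 4 and 1 lower at the first 3 time points. Requiring detection on both arrays gave 0, 0, 0, 2, 0, 1 and 0 higher at the 7 time points in order, since CRYAB and HSPB8 were dim in CTR. Scanner intensities gave 2 higher and 1 lower at 30 min. The 24 h array in place of CTR gave 1 higher each at 2, 4 and 16 h, and 2, 2 and 1 lower at 30 min, 4 h and 16 h. A 2-fold cutoff gave 2, 4 and 6 higher at the first 3 time points, and 2, 1 and 1 lower at 30 min, 4 h and 16 h. Genes in place of probes gave 2, 1, 2 and 1 higher at 8, 12, 16 and 24 h, and 1 lower at 2 h and at 4 h. Counted instead as genes with any probe past 3-fold, 3, 2, 3 and 1 were higher at those times, and 2 and 0 lower at 2 h and 4 h. No scaling between arrays, chosen after seeing the data, gave 5, 7, 6 and 2 higher at 2, 4, 12 and 16 h, and 0 and 1 lower at 2 and 16 h. Neither normexp nor this setting had a 30 min value. CRYAB changes reversed against 24 h, to -1.90 at 4 h and -1.53 at 16 h (A_73_P039441) and to -2.37, -2.11 and -1.77 at 2, 4 and 16 h (A_73_101765), and against 16 h, to -0.38 at 4 h (A_73_P039441) and to -0.61 at 2 h and -0.35 at 4 h (A_73_101765). These 8 are the reversals among changes past 3-fold. Smaller changes, such as those of BAG3 A_73_P258541, also turned sign and are not counted. Of the 5 likeness genes per member, Spearman's rho kept 2 for HSPB1 (saturated, so not read), 1 for HSPB6, 1 for HSPB8, 2 for CRYAB and 2 for BAG3. Leaving out 30 min, also chosen after seeing the data, kept 3 for HSPB6 and 3 for CRYAB. Where no construction of the setting shows it, the cause was not tested.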
